A study of Mus musculus with 9 samples.

Results

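The Hox clusters were examined as 4 stretches of the mouse genome in peak lists of CTCF and Rad21, a subunit of cohesin, made by ChIP-seq from lymphocyte progenitors. Peaks were taken when they overlapped a cluster, from the first to the last of its listed member genes, or the 100 kb on either side. The 38 member genes were Hoxa2 to Hoxa13 (10 genes), Hoxb1 to Hoxb13 (10 genes), Hoxc4 to Hoxc13 (9 genes) and Hoxd1 to Hoxd13 (9 genes). The windows held 168 of the 190262 peaks in the 5 lists together. By list these were 42 of 42250 CTCF peaks in pre-B cells, 62 of 71080 CTCF peaks in pro-B cells cultured with IL7, 26 of 30488 Rad21 peaks in pre-B cells, 10 of 9701 Rad21 peaks in DN thymocytes and 28 of 36743 Rad21 peaks in DP thymocytes.

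All cells came from C57BL/6 mice that lack RAG1, so no antigen receptor gene rearranges in them. The pre-B cells were taken from bone marrow of RAG-deficient mice, 6 to 14 weeks old, that carry a rearranged IgM transgene. The IL7 pro-B cells came from RAG1-/- bone marrow of the same ages and were grown for 7 days with IL7. The DN thymocytes came from Rag1-/- mice of 4 to 8 weeks, and the DP thymocytes from such mice that also carry a rearranged TCRβ transgene. Without a transgene the RAG block stops cells at the pro-B or DN stage, and the transgenes let them reach the pre-B or DP stage, so these populations stand in for stages of wild-type development. Each antibody and cell type had 1 library, the pre-B CTCF and Rad21 libraries shared 1 input, and no test between cell types was possible. Peak lists hold no expression values, so the labelled cell types could not be checked against marker genes. Sequencing depth is unknown for these lists. A place that is absent from a list was not called there, which does not show that it was unbound.

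Hox genes encode homeodomain transcription factors that give cells their position along the body axis, and several of them, Hoxa9 among them, are also used in blood progenitors. Genes at the same relative position in different clusters descend from 1 ancestor and share a paralog number, with high numbers at the 5′ end of the cluster and low numbers at the 3′ end. CTCF is a zinc finger protein that binds a long DNA motif, and cohesin is a ring-shaped complex that holds chromatin loops and often comes to rest where CTCF is bound. In embryonic development CTCF sites between Hox genes are known as boundaries between active and silent parts of a cluster.

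In the mm9 build the Hoxa cluster spans chr6:52112350-52210874 on the minus strand. The other clusters lie on the plus strand, Hoxb at chr11:96055630-96229570, Hoxc at chr15:102751534-102867274 and Hoxd at chr2:74506367-74603200. Peaks of different lists that overlapped by at least 1 bp were merged into places, of which 37 lay inside the clusters and 29 in the flanks. The place that recurred most clearly lay just 3′ of the group 9 gene and was found in all 4 clusters. In Hoxa it overlapped the 5′ part of Hoxa7, and in the other clusters it lay 1893 bp beyond Hoxb9, 2095 bp beyond Hoxc9 and 1809 bp beyond Hoxd9. The best match of each to the known CTCF motif of the HOMER collection is shown because these are the same position in 4 related clusters. Each is written 5′ to 3′ on the strand that reads like the motif, and capitals mark the 20 bases that were scored. They are chr6:52171798-52171827 on the plus strand, in an untranslated part of Hoxa7, chr11:96140254-96140283 on the minus strand, between genes, chr15:102818016-102818045 on the minus strand, in an intron of the predicted gene Gm20398, and chr2:74540444-74540473 on the minus strand, between genes.
Hoxa9 to Hoxa7: gagccACACTGCCATCTCCTGGAATtttct
Hoxb9 to Hoxb8: gagcaAGGATGCCATCTAGCGGCCActgtg
Hoxc9 to Hoxc8: gagcaACAGCGCCACCTCGCGTTCActtgt
Hoxd9 to Hoxd8: gagcaACAGCGCTCTCTAGTGGCCAaatgc

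Of the 30 aligned bases, 10 were the same in all 4 sequences. The search itself favours like letters within the capitals, where 6 of 20 bases were shared by all 4. Ahead of the capitals, which the search did not use, 4 of 5 bases were shared by all 4. Behind the capitals, equally unused by the search, no base was shared by all 4. The 4 shared bases ahead of the capitals stood there in 346 of 26065 pre-B CTCF peaks with a match, or 1.33%. They were read off these 4 sequences, so that share is a description and not a test. Pairs of the 4 sequences had 11 to 13 of the 20 scored bases in common. The longer context of the 3 sites that lie outside annotated exons, 140 bases each, is given with the same 20 bases in capitals. These stretches are chr11:96140199-96140338, chr15:102817961-102818100 and chr2:74540389-74540528, all read on the minus strand.
Hoxb9 to Hoxb8, context: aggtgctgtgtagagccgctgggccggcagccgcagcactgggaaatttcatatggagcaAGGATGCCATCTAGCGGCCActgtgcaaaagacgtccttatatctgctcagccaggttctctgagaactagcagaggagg
Hoxc9 to Hoxc8, context: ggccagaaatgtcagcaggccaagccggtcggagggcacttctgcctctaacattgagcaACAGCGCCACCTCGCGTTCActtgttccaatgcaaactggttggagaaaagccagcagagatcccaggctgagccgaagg
Hoxd9 to Hoxd8, context: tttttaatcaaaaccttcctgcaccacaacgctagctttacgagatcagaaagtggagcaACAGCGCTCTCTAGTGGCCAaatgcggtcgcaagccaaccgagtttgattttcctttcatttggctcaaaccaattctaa

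CTCF peaks were dense inside the clusters. The pre-B list had 26 CTCF peaks there, or 53.6 per Mb against 16.0 per Mb over chromosomes 1 to 19 and X. The IL7 pro-B list had 35, or 72.2 per Mb against 26.9. For Rad21, pre-B cells had 18 peaks (37.1 per Mb against 11.6), DN thymocytes 8 (16.5 against 3.68) and DP thymocytes 14 (28.9 against 13.9). The density was above that of the genome in every list, from 2.07-fold for Rad21 in DP cells to 4.49-fold for Rad21 in DN cells. No test of this excess was made. The order of the lists depends on their lengths. With the Rad21 lists limited to the length of the DN list, 9 pre-B, 8 DN and 6 DP peaks lay inside the clusters, so DN was then not the highest. In the flanks the densities were nearer the genome value, from 2.50 per Mb for Rad21 in DN cells to 33.8 per Mb for CTCF in IL7 pro-B cells.

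The clusters did not share these peaks evenly. Hoxa held 7 pre-B CTCF peaks and 10 IL7 pro-B CTCF peaks, with 6, 2 and 4 Rad21 peaks in pre-B, DN and DP cells. Hoxb, the longest cluster at 174 kb, held 9 and 12 CTCF peaks with 6, 2 and 4 Rad21 peaks. Hoxc held 4 and 6 CTCF peaks with 3, 1 and 3 Rad21 peaks. In Hoxd there were 6 and 7 CTCF peaks, and 3 Rad21 peaks in each of the 3 lists. Per Mb, the pre-B CTCF count ran from 34.6 in Hoxc to 71.0 in Hoxa. When lists of the same antibody were limited to equal length, the IL7 pro-B CTCF count in Hoxa fell to 4. The pre-B Rad21 count then fell to 2 in Hoxa and 3 in Hoxb. The DP Rad21 count fell to 2 in Hoxa, 0 in Hoxc and 1 in Hoxd.

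**Figure D1:**
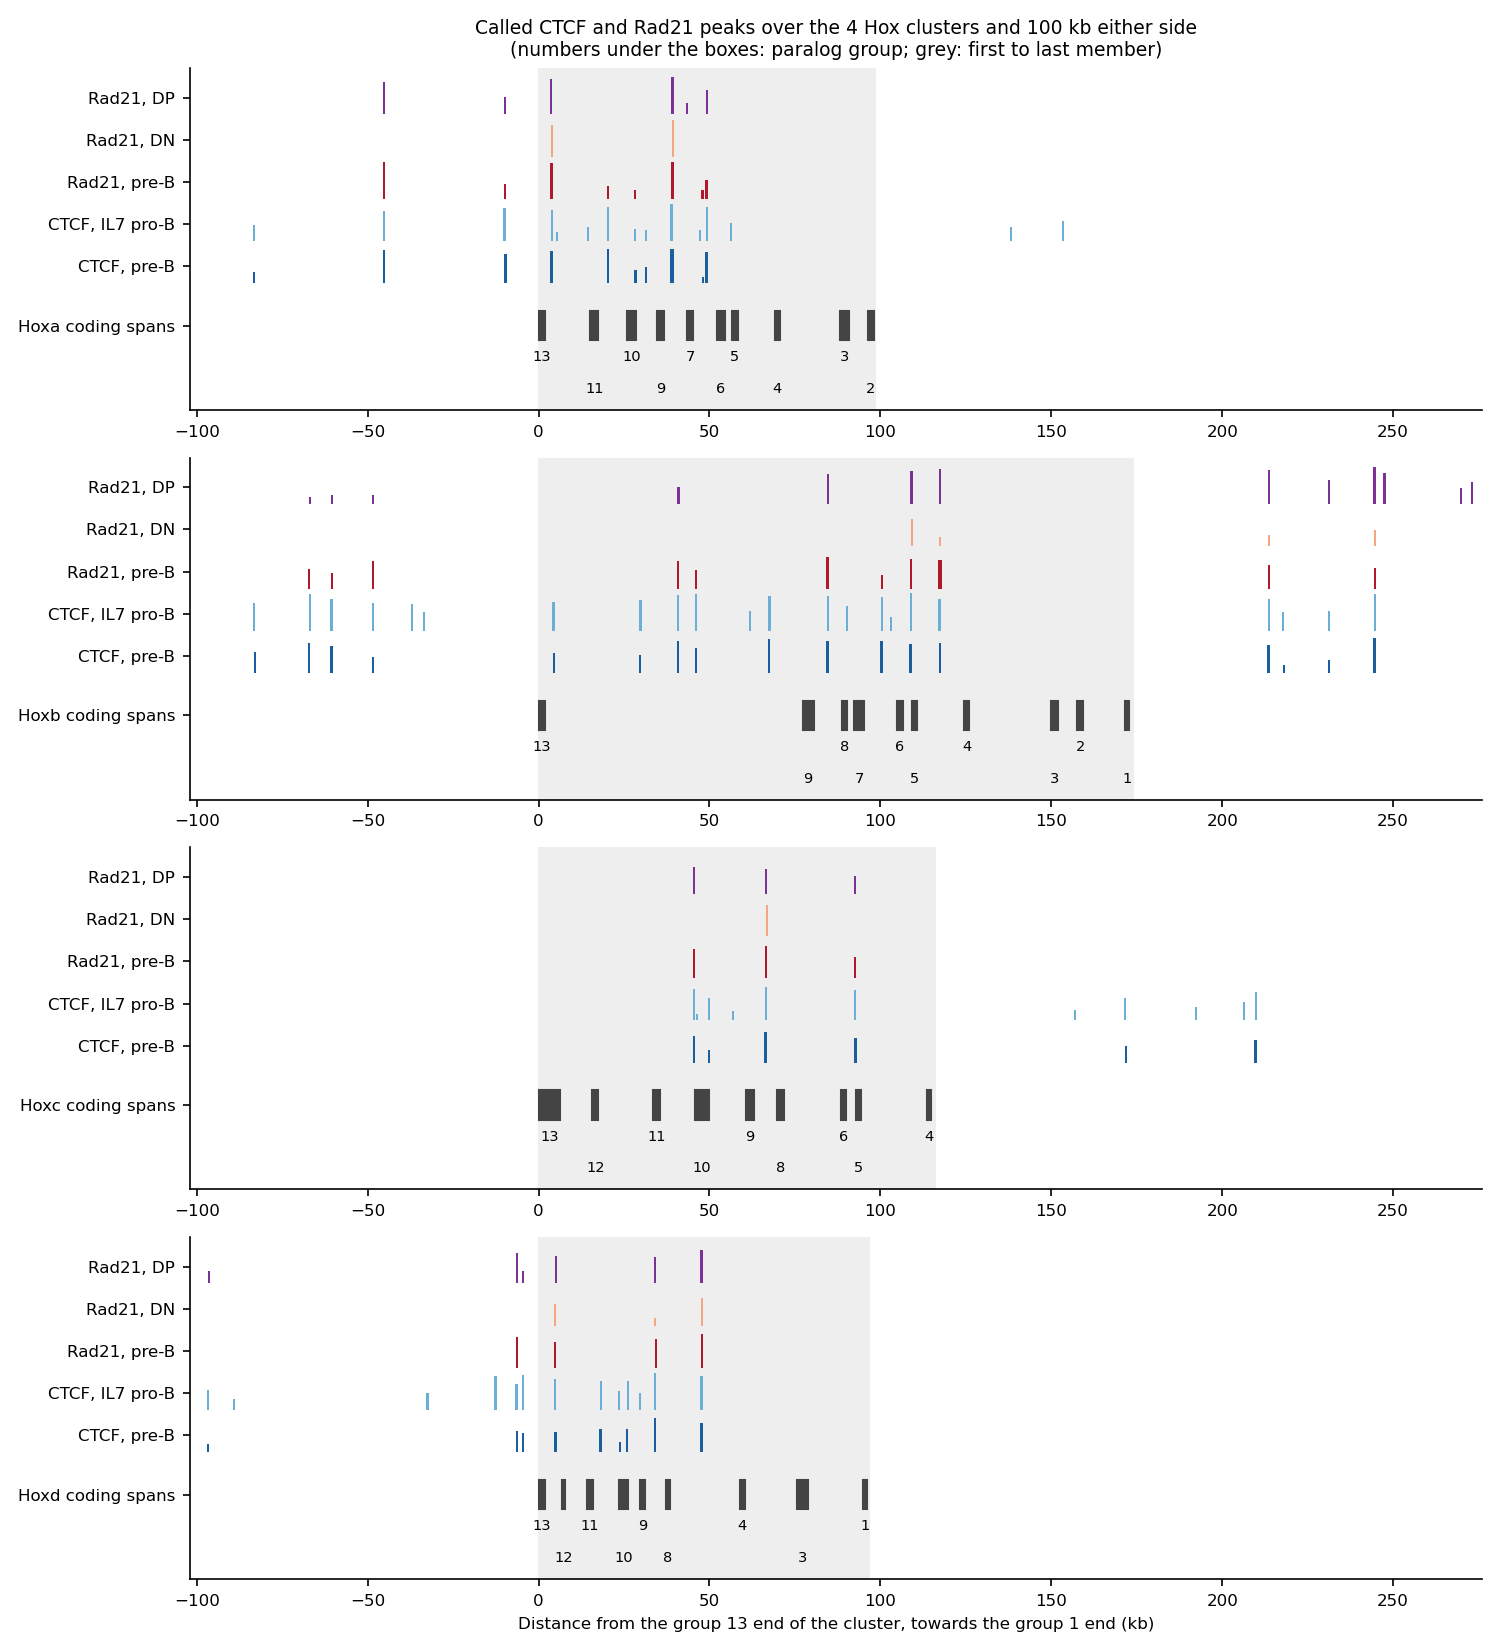
Called peaks of the 5 lists over each Hox cluster and 100 kb either side, with distance from the group 13 end of the cluster in kb on the x axis and 1 row per list. Each bar is a peak, its height rising with the share of its own list that scored lower, and boxes are the coding spans of the members with their paralog numbers. Bars crowd the middle and the group 13 side of the grey cluster spans, while the group 1 side and the group 11 to 13 end of Hoxc are empty in all 5 lists.

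Almost all places inside the clusters carried CTCF. Of the 37 places, 36 held a CTCF peak in at least 1 of the B-lineage lists, where 84.9% of merged places in the whole series did. Rad21 was called at 19 of the 37, against 55.2% over the series. All 5 lists called 8 of the 37 places, against 10.3%, and 10 were called in the IL7 pro-B list alone, against 30.1%. A pre-B CTCF peak without Rad21 in any cell type was found at 8 places, against 14.7%. In the whole of the clusters 1 place had Rad21 and no CTCF, a DP peak at chr6:52167427-52167722 within Hoxa7, just ahead of its coding start, which ranked low in its list with 17.0% of DP peaks below it.

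Along the paralog series the places stood in the middle and 5′ parts of the clusters. Between members of groups 10 to 13 (12 genes, 106 kb counted from the outer ends of their coding spans) there were 12 places, and between members of groups 5 to 9 (15 genes, 99.7 kb) there were 14. Between members of groups 1 to 4 (11 genes, 116 kb) no list had a peak, and this absence was not tested against the spacing of peaks in the genome. The other 11 places lay in stretches that join these parts, 6 of them in the long interval between Hoxb13 and Hoxb9. The call depends on where a gene is taken to begin, because some annotated transcripts of Hoxa3 and Hoxd3 start far upstream, beside Hoxa6 and Hoxd8. Positions here follow the coding span that encloses no other member.

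The stretches without a peak held whole runs of genes. Their lengths were not compared with gaps between peaks elsewhere, and over the genome pre-B CTCF peaks averaged only 16.0 per Mb. In Hoxa no list had a peak over 81.4 kb (chr6:52073015-52154459) with Hoxa5, Hoxa4, Hoxa3 and Hoxa2, of which Hoxa2 sets the identity of the second pharyngeal arch. In Hoxb the empty stretch was 95.3 kb (chr11:96173527-96268796) and held Hoxb4, Hoxb3, Hoxb2 and Hoxb1, the last a gene of the fourth rhombomere of the hindbrain. In Hoxd it was at least 149 kb (chr2:74554525-74703200), from Hoxd4 through Hoxd3 and Hoxd1 to the edge of the window. In Hoxc the stretch without a peak at this end was 63.6 kb (chr15:102844480-102908072) and held Hoxc5 and Hoxc4. Its longest empty stretch lay at the other end, over at least 145 kb (chr15:102651534-102796574) with Hoxc13, Hoxc12 and Hoxc11. That cluster lacks members of groups 1 to 3.

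**Figure D2:**
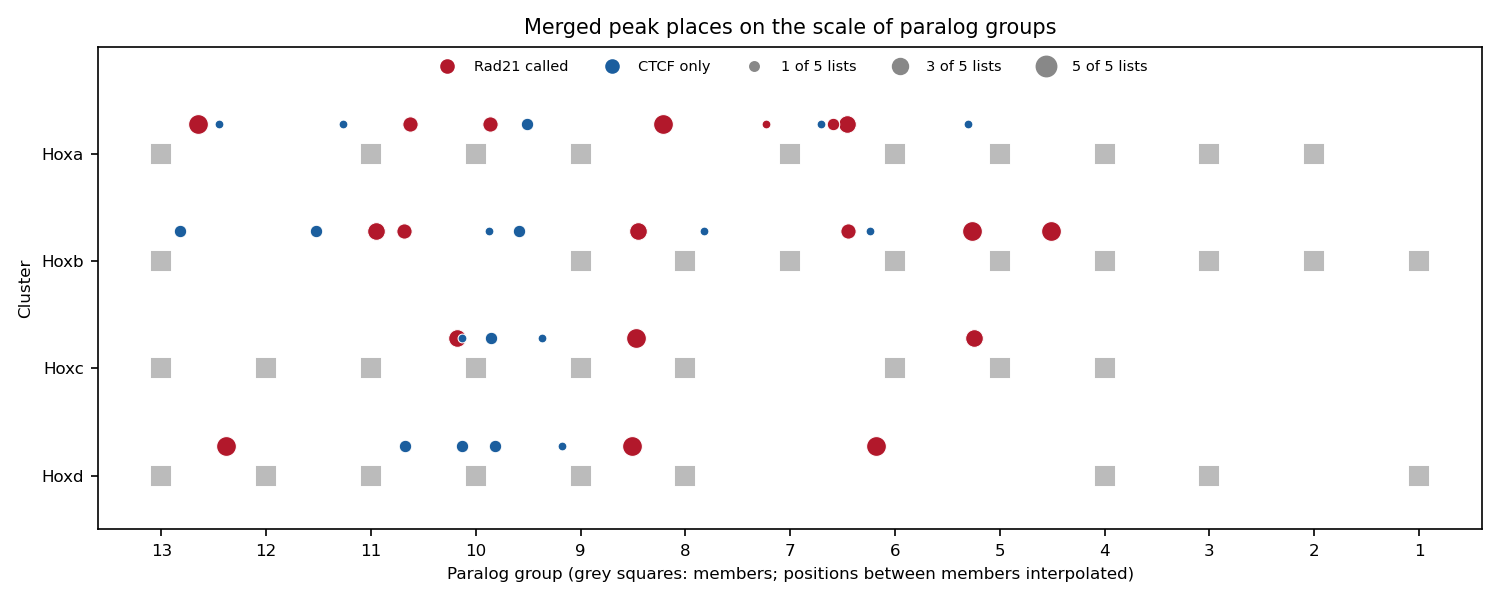
The 37 merged places inside the clusters on a scale of paralog groups, with 13 on the left and 1 on the right of the x axis and 1 cluster per row. Grey squares are members, circle area grows with the number of lists that called the place, and red marks places with Rad21 in any cell type. A large red circle sits just right of group 9 in all 4 rows, and no circle lies right of group 4.

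The first position that recurred between clusters was the place 3′ of group 9, whose sequences are shown above. Rank is given here as the share of peaks in the same list with a lower score, since scores of different libraries are not comparable. In Hoxa it ranked at 88.3% in the pre-B CTCF list, 96.4% in IL7 pro-B CTCF, 95.5% in pre-B Rad21, 95.3% in DN Rad21 and 97.9% in DP Rad21. It was thus among the strongest 5% of peaks in each Rad21 list. In Hoxd it ranked at 87.5% and 96.5% for CTCF, 71.8% for pre-B Rad21, 63.2% for DP Rad21 and only 3.08% for DN Rad21. In Hoxc the ranks were 77.4% and 87.3% for CTCF, then 81.4%, 77.6% and 57.5% for Rad21 in pre-B, DN and DP cells. In Hoxb they were 80.3% and 91.5% for CTCF, 80.7% for pre-B Rad21 and 73.8% for DP Rad21, with no DN call. Both CTCF lists and the pre-B and DP Rad21 lists thus called it in all 4 clusters, and DN Rad21 in 3 of 4. With all Rad21 lists limited to the length of the DN list, the pre-B call held in all 4 clusters and the DP call only in Hoxa and Hoxb. With scores of at least 100 only, the DN call in Hoxd was lost and the other calls held.

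The second recurring position was the 3′ end of the group 10 coding span. A CTCF peak of both B-lineage lists covered the end of the coding span of Hoxa10, Hoxc10 and Hoxd10, which are the 3 members of this group. No other of the 38 members had this, and 1.95% of all protein-coding genes did. This measure was not among those planned, so the share describes these peaks and does not test them. Hoxa10 is needed in the uterus and limb, and the group as a whole patterns the posterior skeleton. The peak in Hoxd10 (chr2:74531914-74532631) ranked at 55.4% in pre-B and 72.0% in IL7 pro-B cells. The peaks in Hoxc10 (20.1% and 50.3%) and Hoxa10 (23.5% and 19.0%) ranked lower. Rad21 was called at Hoxa10 alone, in pre-B cells, at 6.71% of its list. Both with equal list lengths and with scores of at least 100 only, the IL7 pro-B call and the Rad21 call at Hoxa10 were lost, so that both CTCF lists then covered the end of 2 of the 3 genes.

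The third was the start of the group 5 gene. Hoxb5, Hoxc5 and Hoxa5, the 3 members of the group, each had a peak of at least 1 list within 1 kb of the annotated start. Such peaks were common, at 13 of 38 members and 48.1% of all protein-coding genes. The 3 members of group 10, Hoxa10, Hoxc10 and Hoxd10, each had one too, so this recurrence is not particular to group 5. At Hoxb5 (chr11:96164120-96164960) all 5 lists called it, with ranks of 72.0% and 98.2% for CTCF in pre-B and IL7 pro-B cells and of 74.6%, 66.3% and 84.2% for Rad21 in pre-B, DN and DP cells. The IL7 pro-B rank was the highest of any peak inside the clusters. At Hoxc5 (chr15:102843707-102844479) 4 lists called it, at 57.0% and 77.4% for CTCF, 48.6% for pre-B Rad21 and 37.4% for DP Rad21. Both Rad21 calls at Hoxc5 were lost with Rad21 lists of equal length. At Hoxa5, a gene of lung and neck development, only the IL7 pro-B list had a peak, at 37.4%. This call was lost with CTCF lists of equal length, which left a peak at 2 of the 3 starts. The 3 starts thus ran from a place called in every list to one called in 1.

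The fourth was the stretch 5′ of the group 10 gene, for which no share over other intervals was worked out. At the upstream start of Hoxa10 (chr6:52190153-52190886) CTCF ranked at 87.4% and 88.2%, with pre-B Rad21 at 21.0% and no call in thymocytes. At the promoter of Hoxc10 (chr15:102796575-102797299) CTCF ranked at 64.8% and 79.3%, with Rad21 at 70.9% in pre-B and 66.1% in DP cells. Between Hoxd11 and Hoxd10 there were 2 places with CTCF in both lists (52.9% and 72.9%, then 13.9% and 40.1%) and without Rad21. The pre-B Rad21 call at Hoxa10 was lost both with equal list lengths and with scores of at least 100. With equal lengths the DP call at Hoxc10 and the IL7 pro-B call at the weaker Hoxd10 place were lost too, and with scores of at least 100 the pre-B CTCF call at the latter.

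Beyond the place 3′ of group 9 and Hoxb5, the places called in all 5 lists inside the clusters lay next to a group 13 gene or beside an empty stretch. In Hoxa one lay between Hoxa13 and Hoxa11 (chr6:52206684-52207575), 118 bp from the 3′ end of Hoxa13, a gene of digit and genital development. Its ranks were 81.5% and 79.2% for CTCF and 93.6%, 79.8% and 93.3% for Rad21 in pre-B, DN and DP cells. In Hoxd one lay between Hoxd13 and Hoxd12 (chr2:74510893-74511487), at 44.3% and 78.0% for CTCF and 62.5%, 47.3% and 67.8% for Rad21. Hoxa and Hoxd thus both had a place with Rad21 next to the group 13 gene, in Hoxd 1237 bp from Hoxd13. Hoxb had a place with CTCF alone, 916 bp from Hoxb13, and Hoxc had no place beside Hoxc13. With equal list lengths all calls at the Hoxa place held, and the pre-B and DP Rad21 calls at the Hoxd place were lost.

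The last 2 bordered the empty stretches. In Hoxb the place between Hoxb5 and Hoxb4 (chr11:96172622-96173526) ranked at 74.1% and 79.2% for CTCF, with Rad21 at 70.3% in pre-B, 10.2% in DN and 91.9% in DP cells. In Hoxd the place between Hoxd8 and Hoxd4 (chr2:74553675-74554524) ranked at 71.7% and 88.7% for CTCF, with Rad21 at 86.6%, 68.6% and 85.3%. On the group 1 side of each of these there was no further peak of any list inside the cluster.

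Hoxb13 and Hoxb9, the genes at either side of the longest interval (75.3 kb), had 6 places between them, 5 with CTCF in both B-lineage lists. Rad21 was called at 2 of them in pre-B cells and at 1 of those in DP cells, and all 3 calls were lost with Rad21 lists of equal length. The strongest pre-B CTCF peak inside any cluster lay here, at chr11:96122640-96123507 over an exon of the predicted gene Gm53, with 89.0% of the list below it and 90.7% in IL7 pro-B cells. No Rad21 list had a peak there. At chr11:96101351-96102112 the IL7 pro-B rank of 94.7% stood beside 59.9% in pre-B cells and 39.1% for pre-B Rad21. The place at chr11:96096038-96096844 was the one with DP Rad21, at 34.3%, beside 65.9% for pre-B Rad21 and 82.3% and 91.7% for CTCF. The places at chr11:96059677-96060459 and chr11:96085141-96085693 had CTCF alone, at 41.9% and 69.8% and at 38.5% and 78.2%.

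The remaining places of Hoxa and Hoxb with CTCF in both lists lay between members of groups 6 to 10. Between Hoxa7 and Hoxa6 (chr6:52161221-52162153) CTCF ranked at 79.7% and 88.7% in pre-B and IL7 pro-B cells, with Rad21 at 40.6% in pre-B and 56.4% in DP cells. Between Hoxb7 and Hoxb6 (chr11:96155574-96156497), in an intron of Hoxb6, CTCF ranked at 81.6% and 85.5% with pre-B Rad21 at 22.3%. The place between Hoxa10 and Hoxa9 (chr6:52179202-52179860), in an intron of Hoxa9, had low CTCF peaks at 32.6% and 16.0% and no Rad21. Equal list lengths removed the Rad21 calls between Hoxa7 and Hoxa6 and between Hoxb7 and Hoxb6. They also removed the IL7 pro-B call between Hoxa10 and Hoxa9. A score of at least 100 removed the same calls except those between Hoxa7 and Hoxa6.

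**Figure D3:**
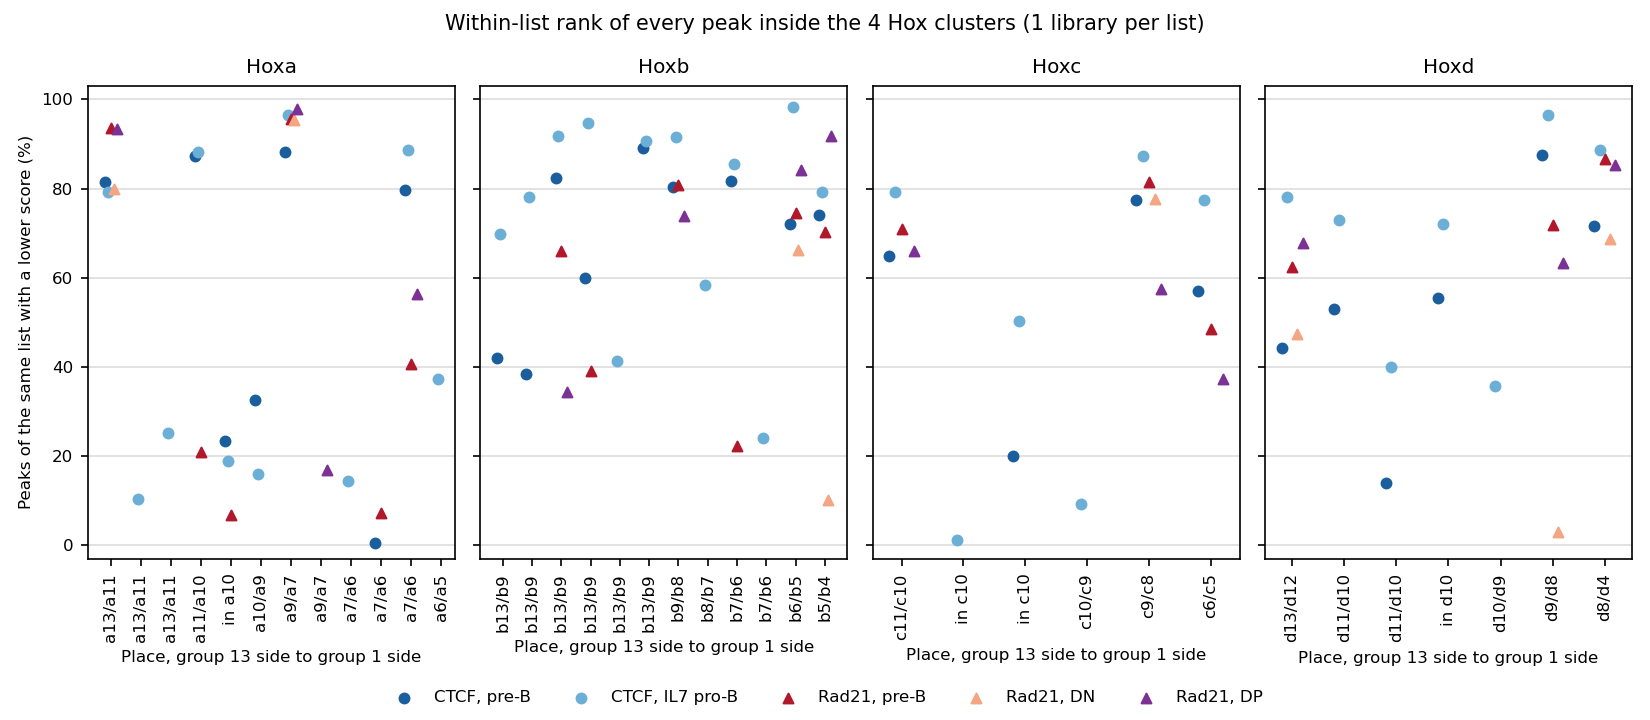
Within-list rank of each peak inside the clusters, as the percentage of its own list with a lower score (y axis), by place from the group 13 side to the group 1 side (x axis), with circles for CTCF and triangles for Rad21. The 5 points at the Hoxa9 to Hoxa7 place lie between 88.3% and 97.9%, while the points at places called in 1 list lie at 58.4% or less.

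Peaks inside the clusters ranked above the middle of their lists. The median rank was 68.2% for pre-B CTCF, 77.4% for IL7 pro-B CTCF, 68.1% for pre-B Rad21, 67.5% for DN Rad21 and 67.0% for DP Rad21, where a whole list has its median at 50 by construction. Peaks ranked above the list's median in 18 of 26, 23 of 35, 11 of 18, 5 of 8 and 11 of 14 cases. In the flanks the medians were 47.4%, 52.3%, 50.2%, 24.5% and 41.3%. Inside, the pre-B CTCF peaks ranged from 0.625% to 89.0%, and none reached the top 10% of the list. In the IL7 pro-B list 7 of 35 peaks did. A rank in percent depends on the length of its list, so ranks of different lists are not strictly comparable. The IL7 pro-B list held 71080 peaks and the pre-B CTCF list 42250.

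Pre-B CTCF peaks inside the clusters had a pre-B Rad21 peak in 18 of 26 cases, or 69.2% (exact Clopper-Pearson 95% interval 48.2 to 85.7), against 63.5% of the whole list. With scores of at least 100 only, the share was 14 of 24 (58.3%), against 59.1% of the list. With the pre-B CTCF and Rad21 lists limited to the shorter, it was 16 of 22 (72.7%), against 78.9%. The share inside the clusters was thus above that of the list with whole lists, but not under these alternatives. The intervals given here cover counting error only. In the reverse direction all 18 Rad21 peaks met a CTCF peak (interval from 81.5%), against 88.1% of the list. CTCF peaks with Rad21 had a median rank of 75.7% and those without it 40.2%, although both groups reached 88.3% or more at their highest. The peak at Hoxb13 to Hoxb9 described above was the highest of those without Rad21.

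With whole lists, nearly all pre-B CTCF peaks were also IL7 pro-B peaks, inside the clusters as in the genome. Of the 26 pre-B peaks, 25 (96.2%, 80.4 to 99.9) were also called in IL7 pro-B cells, against 96.0% of the list. The 1 exception lay between Hoxa7 and Hoxa6 (chr6:52162450-52163243), at the upstream start of Hoxa3, where the pre-B peak ranked at 0.625%. Of the 35 IL7 pro-B peaks, 25 (71.4%, 53.7 to 85.4) were called in pre-B cells, against 58.6% of the longer list. Those 25 had a median rank of 79.3% in the IL7 pro-B list, and the 10 called there alone had a median of 24.7% and a highest value of 58.4%. The 10 stood at all 4 clusters. Those near the starts of Hoxa11, Hoxa5, Hoxb7, Hoxc9 and Hoxd9 ranked at 25.3%, 37.4%, 58.4%, 9.26% and 35.7%. The others lay between Hoxa13 and Hoxa11 (10.4%), between Hoxa7 and Hoxa6 (14.4%), between Hoxb13 and Hoxb9 (41.4%), between Hoxb7 and Hoxb6 (24.0%) and within Hoxc10 (1.14%). With both lists limited to equal length, 22 of 26 pre-B peaks (84.6%) were called in IL7 pro-B cells, against 84.8% of the list, and 22 of 24 IL7 pro-B peaks (91.7%) were called in pre-B cells, against 85.5% of the list.

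Inside the clusters most Rad21 sites were called in both B and T lineage cells. Peaks of the 3 Rad21 lists merged into 19 sites. All 3 cell types called 8 of them (42.1%, 20.3 to 66.5), against 18.7% of sites over the genome. Pre-B and DP cells without DN cells called 5 (26.3%, 9.15 to 51.2), against 25.1%, and pre-B cells alone called 5, against 20.6%. DP cells alone called 1 (5.26%, 0.133 to 26.0), against 33.6%. No site was called in DN cells alone, in pre-B and DN cells or in DN and DP cells, which allows a share of up to 17.6% for each, against 0.310%, 0.831% and 0.940% over the genome. With whole lists every DN peak inside a cluster was thus also a pre-B and a DP peak. With the flanks included there were 33 sites, of which 10 (30.3%) were called in all 3 cell types, 11 (33.3%) in pre-B and DP cells, 5 (15.2%) in pre-B cells alone and 7 (21.2%) in DP cells alone. Of those 7 DP calls, 1 held with Rad21 lists of equal length, beyond Hoxb1. The DN list is the shortest, and without it 13 of the 19 sites (68.4%, 43.4 to 87.4) were called in both pre-B and DP cells, against 43.9%.

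The lengths of the lists bear on these counts. Limited to the length of the DN list, pre-B Rad21 kept 9 of its 18 peaks inside the clusters and DP Rad21 kept 6 of 14. The sites then numbered 10, of which 5 were called in all 3 cell types, against 33.2% over the genome, and none in DP cells alone, against 15.6%. The pre-B and DP pattern and the pre-B-only pattern then had 1 site each (10.0%), against 6.50% and 14.8%. The nesting of the DN calls ended there, with 2 of 10 sites in pre-B and DN cells, between Hoxc9 and Hoxc8 and between Hoxd9 and Hoxd8, against 8.94%, and 1 in DN cells alone, between Hoxd13 and Hoxd12, against 13%. With scores of at least 100 only, 6 of 14 sites (42.9%) were called in all 3, against 21.7% over the genome. The pre-B-only sites then fell from 5 to 1 of 14 (7.14%), against 22.3%, sites of pre-B and DP cells rose to 7 of 14, against 23.6%, and there were no DP-only sites, against 28.9%. The 5 pre-B-only sites lay at 3 places in Hoxa from Hoxa11 to Hoxa6 and at 2 in Hoxb, and their Rad21 peaks ranked from 6.71% to 39.1%.

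**Figure D4:**
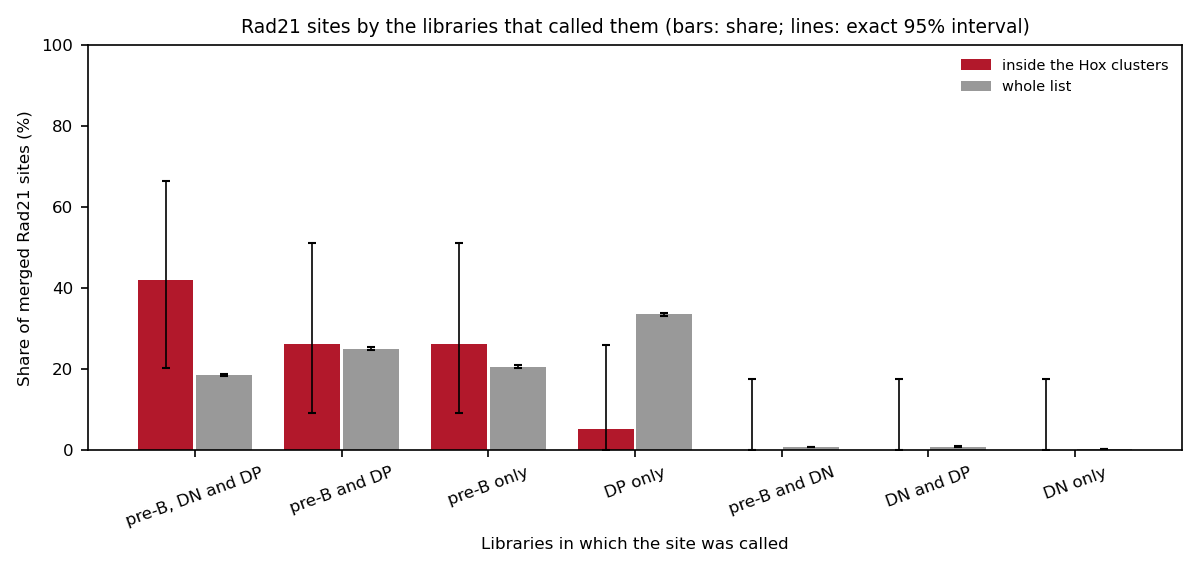
Share of merged Rad21 sites by the libraries that called them (x axis), in percent on the y axis, for the 19 sites inside the Hox clusters (red) and all sites of the series (grey), with exact 95% intervals. Sites common to pre-B, DN and DP cells made up 42.1% inside the clusters and 18.7% over the genome, and DP-only sites 5.26% and 33.6%.

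The share of Hox members with a peak near a start was below that of protein-coding genes at large in 4 of the 5 lists, and the interval of the share held the genome value in all lists but DP Rad21. A peak lay within 1 kb of an annotated start for 8 of the 38 members in the pre-B CTCF list (21.1%, 9.55 to 37.3), against 24.6% of 22342 protein-coding genes. These were Hoxa10, Hoxa9, Hoxa7, Hoxa3, Hoxb5, Hoxc10, Hoxc5 and Hoxd10. The IL7 pro-B list added Hoxa11, Hoxa5, Hoxb7, Hoxc9 and Hoxd9 for 13 members (34.2%, against 36.4%). For Rad21 the counts were 6 in pre-B (15.8%, against 18.9%), 2 in DN (5.26%, against 3.72%) and 4 in DP cells (10.5%, against 31.5%). Hoxa7 and Hoxb5 were the 2 members with a peak of every list at a start, and Hoxc10 and Hoxc5 had all but DN Rad21. At Hoxa3 the count rests on the upstream start beside Hoxa6.

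Peaks over coding spans, introns included, were counted in the same way. The pre-B CTCF list had a peak over the coding span of 4 of the 38 members (Hoxa10, Hoxb5, Hoxc10 and Hoxd10), against 39.6% of all protein-coding genes, and the IL7 pro-B list also of 4 (Hoxa10, Hoxb8, Hoxc10 and Hoxd10), against 49.4%. Rad21 had 2 in pre-B cells, Hoxa10 and Hoxb5, against 32.3%, and none in DN or DP cells, against 12.6% and 35.2%. The spans are not alike in length, with a median of 1.78 kb for the members and 10.7 kb for all protein-coding genes, and the part of length in these shares was not tested. Hoxc10 was the member with most peaks over its span, with 3 in the IL7 pro-B list, 1 of them the weakest CTCF peak of that list inside a cluster at 1.14%.

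CTCF motif matches were scarcer in the clusters than elsewhere. The 12-base de novo motif of the study, searched on both strands with at most 2 mismatches, was found in 3 of the 26 places called in pre-B cells (11.5%, 2.45 to 30.2), against 48.3% of the pre-B list. A 20-base matrix built from that motif outside the Hox windows matched 6 of 26 (23.1%, 8.97 to 43.6), against 61.3%. A matrix built in the same way from the known CTCF motif, added after these values had been seen, matched 9 of 26 (34.6%, 17.2 to 55.7), against 61.7%. Each matrix was set so that 5% of neighbouring sequences passed. All 3 searches gave a lower share inside the clusters than in the list as a whole, and no match says only that no stretch of a peak passed the search. In the flanks the 12-base motif was found in 5 of 16 places called in pre-B cells (31.2%, 11 to 58.7), the de novo matrix in 9 (56.2%, 29.9 to 80.2) and the known motif in 7 (43.8%, 19.8 to 70.1). Sequences next to the 26 places inside the clusters gave 3, 1 and 3 matches in the same order, so the 12-base motif was found in as many of these places as of the sequences beside them.

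**Figure D5:**
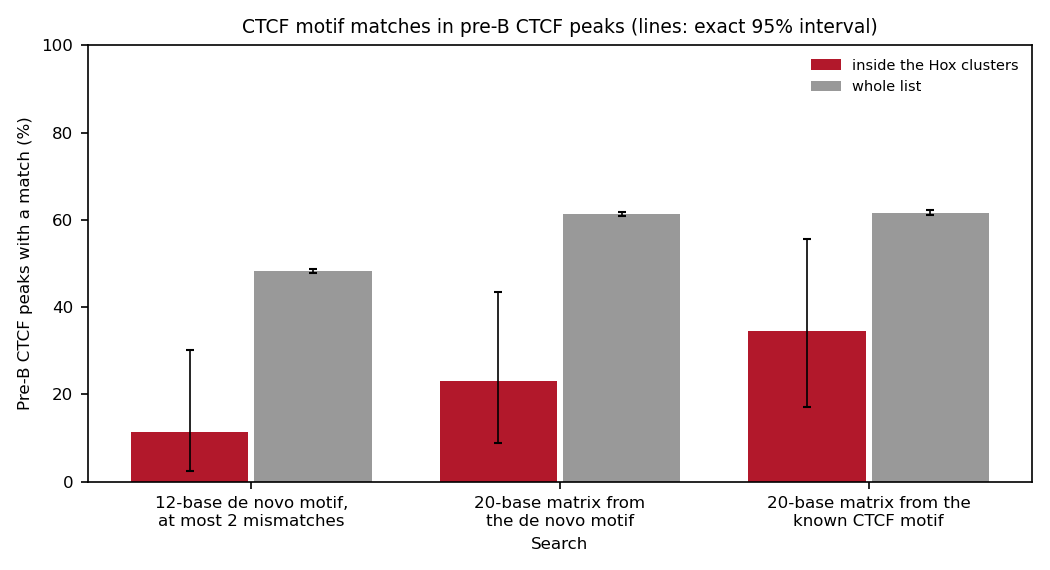
Percentage of pre-B CTCF peaks with a motif match (y axis) in 3 searches (x axis), for the 26 places inside the Hox clusters (red) and the whole pre-B list (grey), with exact 95% intervals. The shares inside the clusters are 11.5%, 23.1% and 34.6%, against 48.3%, 61.3% and 61.7% for the list.

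The direction of the matches depended on the search. A match is described by the direction in which the reverse complement of the printed letters runs, the form in which the CTCF motif is commonly drawn. With the known motif, 11 of the 36 CTCF places inside the clusters had a match, 9 pointing to the group 1 side and 2 to the group 13 side. Both of the latter lay between Hoxb13 and Hoxb9, and all 9 matches at the other places pointed to the group 1 side. The 12-base de novo motif gave 7 matches, 4 to the group 1 side and 3 to the group 13 side. The matrix built from it gave 6 matches, with 3 each way, of which the 3 to the group 13 side all lay between Hoxb13 and Hoxb9. At the place between Hoxc10 and Hoxc9 the known and the de novo motif were found on opposite strands. Sequences next to the 36 places gave 3 matches to the known motif, 3 to the de novo motif and 1 to its matrix.

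Of the places with a known-motif match, 4 more are shown because they carry the contrast in direction, and they were thus picked by their outcome. The Hoxd and Hoxc places matched only the known motif, the search added later. Both places between Hoxb13 and Hoxb9 also matched the de novo matrix. The match between Hoxd8 and Hoxd4 (chr2:74553970-74553999, minus strand, an exon of the noncoding gene 1700109F18Rik and an intron of the long Hoxd3 transcript) and that beside Hoxc5 (chr15:102844125-102844154, minus strand, an intron of Gm20398) pointed to the group 1 side. The matches between Hoxb13 and Hoxb9 (chr11:96085311-96085340 and chr11:96096410-96096439, plus strand, between genes) pointed to the group 13 side. The same 20 bases are in capitals.
Hoxd8 to Hoxd4: gtcctACAGCGCCTCCTCCTGGACAaagct
Hoxc6 to Hoxc5: agctcACAGCGACACCTGGTGCCGActcgg
Hoxb13 to Hoxb9, first: taaaaATGGCGCCCTCTTCTGGCCTctgtg
Hoxb13 to Hoxb9, second: gccacACAGTGACCCCTGCCGGCCGcgaga

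The flanks held 29 places, 13 of them beside Hoxb, and their pattern differed from side to side. The 5′ flank of Hoxc and the 3′ flank of Hoxd had no peak in any list. Beside the group 13 end of Hoxa, the strongest place (chr6:52255657-52256467) lay 7025 bp from Evx1, an even-skipped-like homeobox gene, with ranks of 86.5% and 74.8% for CTCF, 96.1% for pre-B Rad21 and 81.4% for DP Rad21. The next (chr6:52220222-52221231), 9348 bp from Hoxa13, had CTCF at 74.1% and 85.9% and Rad21 at 27.5% in pre-B and 33.6% in DP cells. On the other side of Hoxa the 2 places were called in IL7 pro-B cells alone, at 42.3% and 23.5%.

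Beside Hoxd13, the stretch at Evx2 held a group of places. The strongest 2 by the rank rule were chr2:74501459-74502229, 3541 bp from Evx2, with CTCF at 41.5% in pre-B and 90.1% in IL7 pro-B cells and DP Rad21 at 18.2%, and chr2:74493366-74494179 over the coding sequence of Evx2. The latter was called in IL7 pro-B cells alone and yet ranked at 88.1% of that list. It stood well above the 10 places inside the clusters called in that list alone, which reached 58.4%. Close to the first of these, chr2:74499597-74500375 had Rad21 at 77.8% in pre-B and 76.3% in DP cells.

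In the 5′ flank of Hoxb the 2 strongest places lay near or in Ttll6, a tubulin-modifying enzyme gene. The place at chr11:95988036-95988840, between genes and 6260 bp from Ttll6, had CTCF at 75.7% and 97.2%, with Rad21 at 41.2% in pre-B and 2.36% in DP cells. The place at chr11:95994701-95995374, over an exon of Ttll6, had CTCF at 66.2% and 79.4%, with Rad21 at 29.8% and 7.36%. All 3 DP Rad21 peaks on this side thus ranked under 10% of their list, the third at 9.64%.

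In the 3′ flank of Hoxb the DP Rad21 peaks ranked higher. The place at chr11:96299708-96300666, 25241 bp from Skap1, which encodes an adaptor protein of T cell receptor signalling, was called in all 5 lists. It ranked at 90.7% and 97.2% for CTCF and at 45.7%, 32.3% and 98.5% for Rad21 in pre-B, DN and DP cells. The DP value was the highest of any DP peak in the windows. At chr11:96268797-96269550, 39227 bp from Hoxb1, all 5 lists also had a peak, with CTCF at 67.0% and 80.3% and Rad21 at 54.8%, 16.6% and 89.1%. At both of these places the pre-B Rad21 call was lost with Rad21 lists of equal length.

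The flanks had 3 places with Rad21 and no CTCF, all between Hoxb1 and Skap1 or in Skap1, and all called in DP thymocytes alone. They ranked at 78.3%, 32.3% and 49.0% of the DP list and were named after their values had been seen. With Rad21 lists of equal length the first of them was left, and with scores of at least 100 the first and the last. The CTCF lists came from B-lineage cells, so CTCF in DP thymocytes was not analysed here. In the 3′ flank of Hoxc the 5 places had CTCF only, the strongest at 53.0% and 70.7% and the next at 32.9% and 52.3% in pre-B and IL7 pro-B cells.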

How the data were processed

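ChIP-seq was done by the study with antibodies to CTCF and Rad21, each with an input of the same cells. Per the methods, the authors removed duplicates, mapped the rest to mm9 by Bowtie with up to 3 locations allowed for a read, and called confident peaks with MACS (Bowtie 0.12.9 and MACS 1.4.2 in the submitters' processing notes). The deposited lists give each peak's position and a MACS score, which grows with depth and was used only to rank peaks within 1 list. Reads placed at several locations can raise peaks in repeated sequence.

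Lists were read with Python 3.11.15. Overlaps needed 1 bp, intervals came from scipy 1.17.1, and figures from matplotlib 3.10.9. Genes came from GENCODE in mm9 and sequences from that genome. The known-motif matrix was built from 2380 matches with at most 3 mismatches. Code was tested on simulated data. The rule for naming took all members, all places inside the clusters by the members beside them, and the 2 flank places of highest rank on each side. Members and lists were chosen with earlier results of these data known. Alternatives were a score of at least 100, equal list lengths, midpoints, edges moved by 5 kb, flanks of 50 kb, overlap of 50%, 1 mismatch and other matrices.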

Additional observations from a re-analysis of the deposited data

How the results depend on the processing

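No paired analysis was possible because each antibody and cell type had 1 library. Limiting the Rad21 lists to equal length lowered the pre-B count inside the clusters from 18 to 9 and with flanks from 26 to 12, and the DP count from 14 to 6 and from 28 to 11. Limiting the CTCF lists to equal length raised the share of IL7 pro-B peaks called in pre-B cells to 91.7% (85.5% for the whole list). Equal Rad21 lengths lowered the share of DP-only Rad21 sites to 0% (15.6% over the genome), and that of pre-B and DN sites rose from 0% to 20% (8.94%). Sites of pre-B and DP cells went from 26.3% to 10.0% with equal lengths and to 50% with a score of at least 100. A score of at least 100 gave 0% DP-only and 7.14% pre-B-only sites (28.9% and 22.3% over the genome). With 1 mismatch the de novo motif had 0 matches inside the clusters, so 0 in either direction, and the added known-motif matrix gave 11 places with a match, 9 towards the group 1 side. Peak counts with midpoints, wider edges or narrower flanks stayed within 1.5 times, and the 3 shares between pairs of lists were recomputed at 50% overlap and did not change. The share of pre-B CTCF peaks with pre-B Rad21 was below that of the list with a score of at least 100 (58.3% against 59.1%). It was also below with the pre-B CTCF and Rad21 lists limited to the shorter (72.7% against 78.9%). Median ranks were not recomputed. Of the counts for single clusters, 9 moved by more, all with the score minimum or equal lengths. Depth is unknown, so absent calls set no bound on binding.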
